A study of Mus musculus with 12 samples.

Results

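The circadian clock genes around *Per1* were examined in the main olfactory epithelium (MOE), the tissue of the nose that holds the odorant-sensing neurons, of 6 ΔJ and 6 wild-type mice. The set comprised 10 genes (*Per1*, *Per2*, *Per3*, *Cry1*, *Cry2*, *Arntl*, *Clock*, *Nr1d1*, *Nr1d2* and *Dbp*), each read by 1 of the 21789 probe sets that the platform annotation pairs with a single gene, out of 35556 probe sets in all. *Per1* was taken up because it had one of the smallest p-values between the genotypes among genes that are not odorant receptor (OR) genes, and the others because they belong to the same clock. The difference between genotypes was therefore used in choosing the set and is given below as a description without a test, whereas age, sex, array set and the variation from mouse to mouse were not used in the choice.

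ΔJ mice were homozygous for a CRISPR-Cas9 deletion of the J element, an enhancer of the class I OR genes on chromosome 7, and the wild-type mice were littermates. The labels give the strain as C57BL/6. The line came from a single founder made in B6C3F1 eggs, which carry C3H as well as C57BL/6 DNA. For the arrays, the study's methods name ΔJ heterozygotes of the second backcross to C57BL/6NCrSlc. Mice were kept in 12 h of light and 12 h of dark. The wild-type group held 4 females and 2 males, of which 4 mice were taken at P30 and 2 at P33. The ΔJ group held 3 females and 3 males, of which 5 were taken at P30 and 1 at P33. Each mouse gave 1 array, so that each array is a separate animal, and the sources used here give neither the litter of a mouse nor the hour at which its tissue was collected. The deletion was carried in every cell of the animal, and the whole MOE was measured, so that less RNA per cell and fewer cells of a type cannot be told apart.

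The mammalian clock is a loop of transcription in which CLOCK and ARNTL (BMAL1) bind E-box sequences and switch on the *Per* and *Cry* genes, whose proteins return to the nucleus and repress CLOCK and ARNTL. A second loop runs through the nuclear receptors encoded by *Nr1d1* and *Nr1d2* (REV-ERBα and REV-ERBβ), which repress *Arntl* and other genes through ROR response elements (ROREs), and *Dbp* encodes an output factor that acts through D-boxes. The clock runs in most tissues, the olfactory epithelium among them, and *Per1* is also known to respond within the day to hormones and to cAMP signalling.

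The start regions of *Per1*, *Cry1*, *Nr1d1* and *Per3* are shown because they hold the elements through which these loops are known to run, in genes that the results below turn on. Sequences and coordinates are those of RefSeq on the build GRCm38.p6 (mm10), 5′ to 3′ on the strand of the gene, from 250 bases before to 50 bases after an annotated start, with the matched element in capitals. The window of *Per1* lies at chr11:69098699-69098998 (plus strand), that of *Cry1* at chr10:85185005-85185304 (minus strand), that of *Nr1d1* at chr11:98775328-98775627 (minus strand) and that of *Per3* at chr4:151044616-151044915 (minus strand).

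Per1: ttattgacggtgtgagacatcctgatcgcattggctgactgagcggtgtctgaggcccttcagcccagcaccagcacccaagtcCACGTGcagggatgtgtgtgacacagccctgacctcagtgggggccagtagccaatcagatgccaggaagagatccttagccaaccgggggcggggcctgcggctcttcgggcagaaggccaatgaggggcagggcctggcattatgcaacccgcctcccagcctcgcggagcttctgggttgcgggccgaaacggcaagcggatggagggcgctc

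Cry1: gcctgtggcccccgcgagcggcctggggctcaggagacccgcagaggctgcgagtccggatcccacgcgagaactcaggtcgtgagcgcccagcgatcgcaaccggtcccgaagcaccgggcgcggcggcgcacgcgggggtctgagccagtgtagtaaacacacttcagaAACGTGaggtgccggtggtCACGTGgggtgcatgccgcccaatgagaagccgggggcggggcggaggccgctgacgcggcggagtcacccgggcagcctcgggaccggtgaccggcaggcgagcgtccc

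Nr1d1: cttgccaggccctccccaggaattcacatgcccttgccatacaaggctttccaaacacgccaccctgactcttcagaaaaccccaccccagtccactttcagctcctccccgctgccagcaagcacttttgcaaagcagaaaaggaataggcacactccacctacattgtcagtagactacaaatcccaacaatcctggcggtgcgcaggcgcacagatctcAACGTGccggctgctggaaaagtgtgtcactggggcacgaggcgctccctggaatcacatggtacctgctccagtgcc

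Per3: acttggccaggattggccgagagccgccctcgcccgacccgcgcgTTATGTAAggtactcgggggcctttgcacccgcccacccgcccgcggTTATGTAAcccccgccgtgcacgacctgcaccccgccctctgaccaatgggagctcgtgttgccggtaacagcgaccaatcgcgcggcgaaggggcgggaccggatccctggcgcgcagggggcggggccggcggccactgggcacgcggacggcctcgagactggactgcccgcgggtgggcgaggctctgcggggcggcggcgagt

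The capitals mark an E-box (CACGTG) 166 bases before the start of *Per1* and 60 bases before that of *Cry1*. *Cry1* also held the variant E'-box (CACGTT, here read from the other strand) 79 bases before its start, and *Nr1d1* held one 28 bases before its start. *Per3* held a pair of D-boxes (searched as TTATGTAA or TTACGTAA) at 205 and 158 bases before the start. All motifs were searched on both strands. Of 32851 windows of the same length over all genes, 7.15% held an E-box, 4.68% an E'-box and 1.06% a D-box. Among the other members, a window of *Cry2* held an E'-box 166 bases before the start and one of *Arntl* a RORE (searched as TAGGTCA or TGGGTCA, in 6.45% of all windows) 30 bases after it. Windows of *Clock*, *Nr1d2* and *Dbp* and a second window of *Per1* held none of these, *Per2* has no entry in the sequence table, and a cAMP response element (TGACGTCA, in 1.79% of all windows) was found in none of the 13 windows of 9 members. A match is a description of these letters and was not measured as bound.

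All levels below are log2 signals relative to the 75th percentile of the same array, so that 0 is the signal at that percentile, and a probe set is compared only with itself across mice. The genotype labels were checked on 2 class I OR genes near the deletion. The wild-type and ΔJ levels were -0.66 ± 0.22 and -3.33 ± 0.39 (SD, n = 6 each) for *Olfr552* and -1.57 ± 0.12 and -3.40 ± 0.12 for *Olfr544*, with no overlap. The tissue label was checked on markers. The mature olfactory sensory neuron genes *Omp* and *Adcy3* had mean levels of 3.95 and 3.06 in wild-type mice, and the sustentacular cell gene *Cyp2g1* 4.92. Over 9 lists of cell type markers, 32 of 36 listed genes were measured, and 0 of them were called between genotypes or passed an unadjusted p of 0.05 there by limma, with differences from -0.20 to 0.30. The first listed markers differed by 0.04 (*Omp*) and 0.04 (*Adcy3*) for mature and 0.18 (*Gap43*) and -0.14 (*Gng8*) for immature neurons, -0.02 (*Krt5*) and -0.01 (*Krt14*) for basal cells and -0.01 (*Cyp2g1*) for sustentacular cells. For tissue beside the neurons they differed by -0.01 (*Foxj1*) and 0.02 (*Bpifb9a*) in respiratory epithelium and glands, 0.09 (*Ptprc*) and 0.02 (*Cd68*) in immune cells, 0.30 (*Alas2*) in blood, 0.12 (*Mbp*) in glia and 0.05 (*Acta1*) and 0.15 (*Myh4*) in muscle. The arrays fell into 2 sets, replicates 1 to 3 and replicates 4 to 6 of each genotype, which differed in the spread of the deposited log2 signals (SD 2.07 to 2.13 against 2.20 to 2.23). All 3 mice taken at P33 lay in array set 2. A pair of ΔJ arrays stood apart from their group: the residual SD over all probe sets within genotype and array set was 0.26 for ΔJ replicate 5 and 0.25 for ΔJ replicate 6, against 0.14 to 0.19 for the other 10.

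Between genotypes, *Per1* was the member that stood lower in ΔJ mice, and the other 9 overlapped. *Per1* (chromosome 11, 69095108 to 69109965), whose product is a repressor in the core loop, ranged from 0.99 to 1.27 in wild-type (median 1.10) and from 0.50 to 0.90 in ΔJ mice (median 0.83). Every ΔJ mouse thus lay below every wild-type mouse. The means were 1.11 ± 0.10 (SD, n = 6) and 0.76 ± 0.15, a difference of -0.35 (SE 0.08, 95% confidence interval -0.52 to -0.17), or a signal 78.6% of wild-type. By p-value *Per1* ranked 73rd of all 35556 probe sets, which is what it was chosen on. The lower level was present in both array sets (-0.26 in set 1 and -0.44 in set 2), among the 9 mice at P30 (-0.33) and without ΔJ replicate 5, the lowest mouse (-0.29). These are parts of the same contrast that chose *Per1* and give it no separate support. The difference may be overstated by that choice, and its interval does not allow for it.

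**Figure D1:**
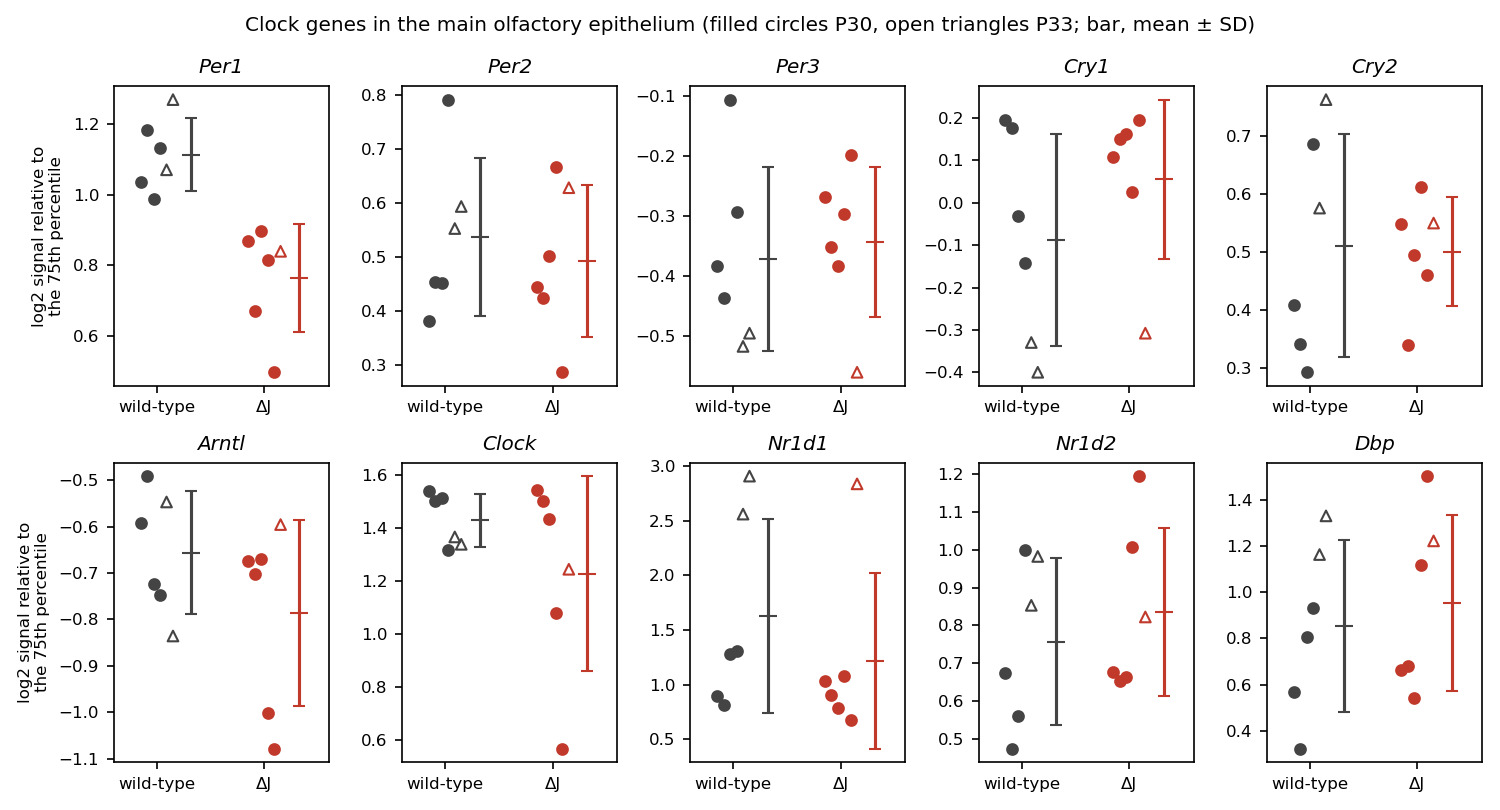
Level of each of the 10 clock genes (y axis, log2 signal relative to the 75th percentile of the array, a separate scale for each gene) in 6 wild-type and 6 ΔJ mice. Filled circles are mice at P30, open triangles mice at P33, and the bar beside each group is its mean ± SD. *Per1* is separated by genotype (0.99 to 1.27 against 0.50 to 0.90), whereas the 3 open triangles of *Nr1d1* lie above 2.5 in both genotypes.

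The paralogues of *Per1*, whose products are repressors too, overlapped between genotypes. *Per2* (chromosome 1, 91415977 to 91459351) ranged from 0.38 to 0.79 in wild-type (median 0.50) and from 0.29 to 0.67 in ΔJ mice (median 0.47), a difference of -0.05 (SE 0.09). *Per3* (chromosome 4, 150997018 to 151044707) ranged from -0.52 to -0.11 (median -0.41) and from -0.56 to -0.20 (median -0.32), a difference of 0.03 (SE 0.08). In both genes the 2 groups covered nearly the same range. Of the cryptochromes, the other repressors of the core loop, *Cry1* (chromosome 10, 85131700 to 85185054) differed by 0.14 (SE 0.12) and *Cry2* (chromosome 2, 92403646 to 92434085) by -0.01 (SE 0.09), again with overlapping groups.

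Among the activators, *Arntl* (chromosome 7, 113178471 to 113314126) differed by -0.13 (SE 0.10; -0.07 without ΔJ replicate 5) and *Clock* (chromosome 5, 76209868 to 76305603) by -0.20 (SE 0.15). *Clock* had a tight range in wild-type mice (1.31 to 1.54, median 1.43) and a wide one in ΔJ mice (0.57 to 1.54, median 1.34). The lowest mouse was ΔJ replicate 5, at 0.57, and without it the difference was -0.07. ΔJ replicates 4 and 6, at 1.08 and 1.24, also lay below the wild-type range. *Arntl* and *Dbp* are the members on the chromosome of the deletion, 10.6 Mb and 56.9 Mb from *Olfr552*.

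In the second loop and the output, *Nr1d1* (chromosome 11, 98767932 to 98775377) differed by -0.41, the largest value of the set, but with an SE of 0.44. It ranged from 0.82 to 2.91 in wild-type mice (median 1.29) and from 0.68 to 2.84 in ΔJ mice (median 0.97), and among mice at P30 the difference was -0.18. The wide ranges came from the P33 mice, which were 2 of 6 in one group and 1 of 6 in the other. *Nr1d2* (chromosome 14, 18204056 to 18239106) differed by 0.08 (SE 0.12), or 0.0068 without ΔJ replicate 5, and *Dbp* (chromosome 7, 45705100 to 45710203), the D-box-binding output factor, by 0.10 (SE 0.20), or -0.01 without that mouse.

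As a set, 4 of the 10 genes had a higher and 6 a lower mean in ΔJ mice, with a median difference of -0.03, the same as the median of -0.03 over all probe sets. At a fold change beyond 1.3 with an adjusted p under 0.05, 0 of the 10 were called, where 0.135% of all probe sets were. At an unadjusted p under 0.05 the count was 1, *Per1*, where the share of all probe sets was 3.33%, and groups without overlap with the ΔJ mice lower were seen for 1 member, again *Per1*, and for 0.259% of all probe sets. Nothing is read from these counts, since this contrast chose the set. Of 22 other clock genes listed, 19 were measured by 20 probe sets, of which 0 were called and 0 passed the unadjusted p, with 7 higher, 13 lower and a median of -0.04. They ran from *Nfil3*, a repressor acting at D-boxes, at -0.13 (SE 0.09) to *Bhlhe41*, a repressor acting at E-boxes, at 0.19 (SE 0.14). Whether the genotype difference was itself unequal between the array sets was tested by an interaction term in limma, and 0 of 10 members passed (0 also at an unadjusted p under 0.05), where the share of all probe sets was 0%.

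Genes known to change quickly with the state of the animal were read beside these values, as 2 lists. Of 10 immediate early genes, 8 were lower in ΔJ mice with a median of -0.20 and 0 called (*Fos* -0.25, SE 0.18, and *Egr1* -0.26, SE 0.24), and of 11 measured glucocorticoid response genes, 8 were lower with a median of -0.05 and 0 called (*Fkbp5* 0.14, SE 0.15, and *Tsc22d3* 0.01, SE 0.31). Of all probe sets, 60.2% were lower, and in neither list did a gene pass an unadjusted p of 0.05. Among the P30 mice the differences were 0.07 for *Fos* and 0.05 for *Egr1*. The 2 wild-type mice at P33 had the highest levels of both genes, -0.71 and -0.76 for *Fos* and -0.14 and 0.04 for *Egr1*. Their part in the level of *Per1* was not tested.

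Between ages, *Nr1d1* rose at P33. Its levels at P33 were 2.56 and 2.91 in wild-type replicates 5 and 6 and 2.84 in ΔJ replicate 6, whereas the 9 mice at P30 ranged from 0.68 to 1.31 with the 3 of array set 2 at 1.31 (wild-type replicate 4), 1.08 (ΔJ replicate 4) and 0.68 (ΔJ replicate 5). Every P33 mouse, of either genotype and either sex, lay above every P30 mouse, and no mouse lay between 1.31 and 2.56. The means were 2.77 ± 0.18 (SD, n = 3) and 0.98 ± 0.22 (SD, n = 9). With genotype and array set in the model, the difference was 1.70 (SE 0.17, 95% confidence interval 1.33 to 2.08, adjusted p = 0.016 by limma over all probe sets), a 3.26-fold higher signal. *Nr1d1* was 1 of 2 probe sets called for age, 0.00562% of the 35556, and the other has no gene name in the annotation.

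The call for *Nr1d1* was sensitive to the number of mice. The difference stayed between 1.56 and 1.87 when single mice were left out, but the adjusted p rose to 0.055 without ΔJ replicate 2, 0.077 without ΔJ replicate 4 and 0.22 without ΔJ replicate 6, one of the 2 arrays that stood apart. It was 1.69 (adjusted p = 0.63) within array set 2 alone, where all 3 mice at P30 were female and 2 of 3 at P33 male, and 1.57 (adjusted p = 0.28) with sex as an added term. The highest level of all, 2.91, was that of a P33 female, and the 3 P30 males stood at 1.28, 1.03 and 0.91, inside the range of the P30 females. Age and any other way in which these 3 mice differed from the rest as a group cannot be told apart.

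**Figure D2:**
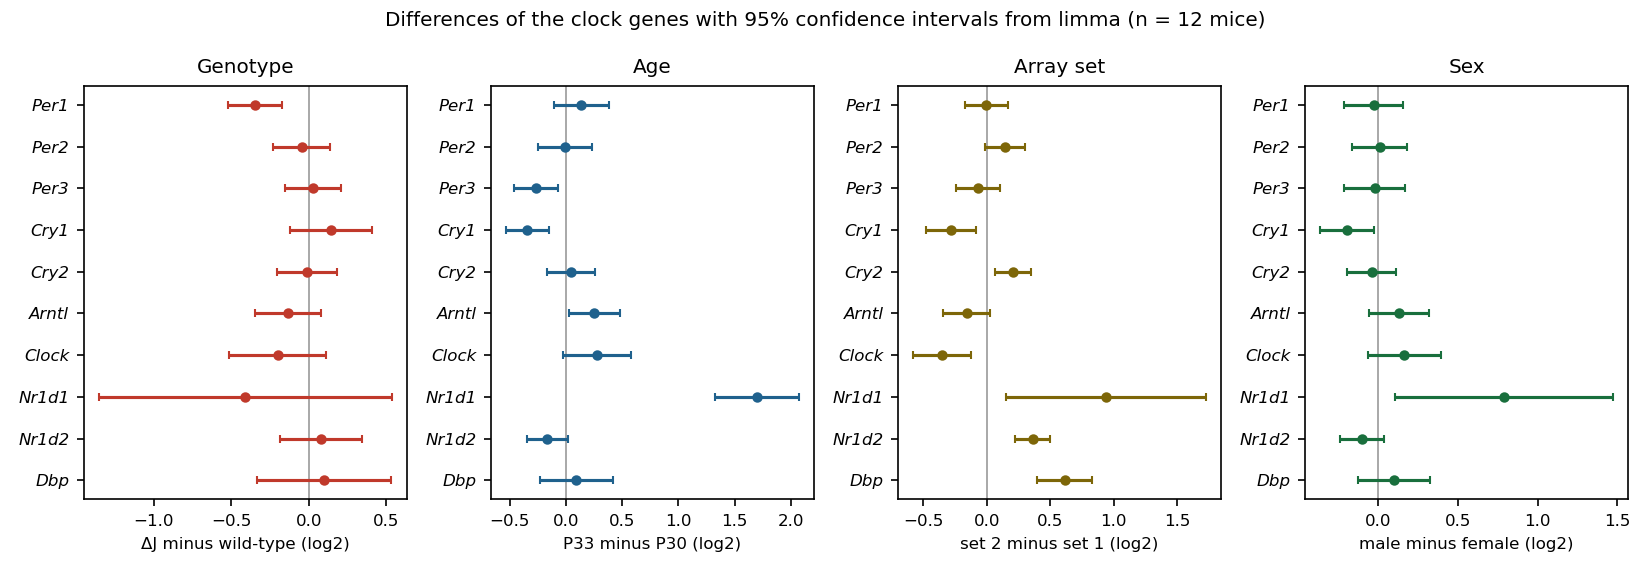
Differences of the 10 clock genes on the log2 scale (x axis, a separate scale for each panel) between genotypes, ages, array sets and sexes, each point with its 95% confidence interval from limma over 12 mice. The genotype panel is a description, since that contrast chose the set. *Nr1d1* stands at 1.70 for age, away from the other 9 genes, which lie between -0.34 and 0.28.

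Other members moved less with age. *Cry1*, a known target of REV-ERBα repression as well as a repressor of the core loop, stood at -0.33, -0.40 and -0.31 in the 3 P33 mice and from -0.14 to 0.20 in the 9 P30 mice, without overlap. Its difference was -0.34 (SE 0.09, adjusted p = 0.20 by limma). *Per3* also had its 3 P33 mice (-0.56 to -0.49) below all P30 mice (-0.44 to -0.11), with a difference of -0.27 (SE 0.09, adjusted p = 0.24). Neither gene passed the adjusted test. The share of all probe sets with every P33 mouse above every P30 mouse was 3.37%, against 1 of 10 members (*Nr1d1*), and the share with every P33 mouse below was 3.25%, against 2 of 10.

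*Arntl*, a target of REV-ERBα repression, had a difference of 0.25 (SE 0.10, adjusted p = 0.31), which was 0.15 without ΔJ replicate 6. *Clock* had one of 0.28 (SE 0.14, adjusted p = 0.37), which was 0.10 without ΔJ replicate 5. The paralogue *Nr1d2* had -0.16 (SE 0.08, adjusted p = 0.38), a sign opposite to that of *Nr1d1*, and -0.09 without ΔJ replicate 6. *Per1* had 0.14 (SE 0.11), and 0.04 without ΔJ replicate 5. The smallest values were those of *Dbp* at 0.09 (SE 0.15), *Cry2* at 0.04 (SE 0.10) and *Per2* at -0.01 (SE 0.11). At an unadjusted p under 0.05, 4 of 10 members passed, *Nr1d1* and *Arntl* higher and *Cry1* and *Per3* lower, where 14.6% of all probe sets did. Without ΔJ replicate 6 this count was 2.

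For age, 0 of the 20 probe sets of other clock genes passed the adjusted test. An unadjusted p of 0.05 was passed by 10, where 14.6% of all probe sets did. The 5 higher values at P33 were those of *Bhlhe40* (0.44, SE 0.10), a repressor acting at E-boxes, *Prkaa1* (0.31), *Rorb* (0.28), *Hlf* (0.20) and *Csnk1e* (0.16). The 5 lower ones were those of *Tipin* (-0.33), *Wee1* (-0.27), *Nampt* (-0.27), *Tef* (-0.21) and *Csnk1d* (-0.14). Members of the D-box-binding family, *Hlf* and *Tef*, thus had opposite signs, and adjusted p-values ran from 0.18 to 0.34 over these 10.

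*Thra*, whose gene overlaps *Nr1d1* on chromosome 11, had a difference of 0.17 (SE 0.06, adjusted p = 0.26), and *Sphk2*, which overlaps *Dbp*, one of 0.38 (SE 0.09, adjusted p = 0.18). Beside the rise of *Nr1d1*, 5 of 11 glucocorticoid response genes were lower at P33 at an unadjusted p under 0.05 (*Tsc22d3* -1.06, SE 0.20, and *Fkbp5* -0.58, SE 0.11) and 2 of 10 immediate early genes higher (*Egr1* 0.67, SE 0.20), with 0 of either list called. *Fos* was not among those 2. Of the 32 cell type markers 0 were called, and 6 were higher and 3 lower at an unadjusted p under 0.05. Beside these lists, 14.6% of all probe sets passed that p. The markers ran from *Alas2*, an erythroid gene, at -1.32 to *Gng8*, an immature neuron gene, at 0.51. The other immature neuron markers went the other way, *Gap43* at -0.34 (SE 0.10) and *Stmn4* at -0.22 (SE 0.10). The part of these lists and markers in the level of *Nr1d1* was not tested.

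The levels of *Nr1d1* and *Cry1* ran in opposite order also among mice of the same age. The 12 mice fell into 2 clusters by *Nr1d1*, so the relation was read within the 9 mice at P30. There Pearson's r was -0.93 and Spearman's rho -0.88, and r was -0.83 without wild-type replicates 3 and 4, the mice farthest from the median of *Nr1d1*. Within the 6 mice of array set 1, r was -0.94 and rho -0.77. Genotype and array set were left in these levels. Over the same 9 mice, 0.0225% of all probe sets had an r with *Nr1d1* as far below 0. Within the 6 mice of array set 1, the share as far below 0 as the r there was 0.388%. This pair was picked from the 45 pairs of members after its values were seen, so no test is given.

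**Figure D3:**
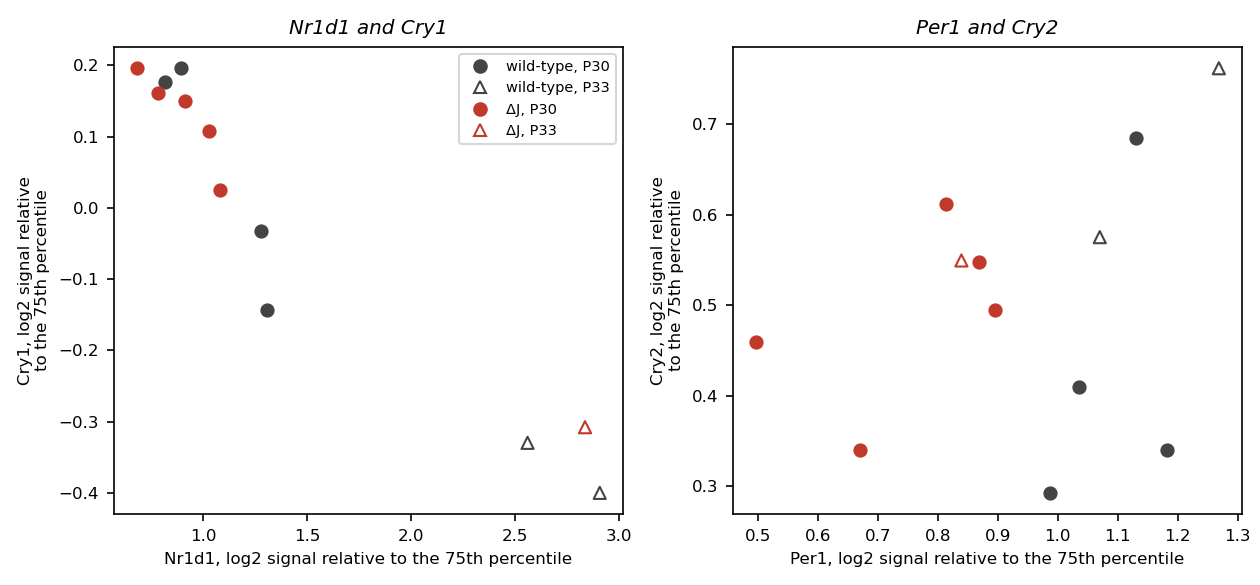
Levels of 2 pairs of clock genes in the 12 mice (both axes, log2 signal relative to the 75th percentile of the array), with *Nr1d1* and *Cry1* on the left and *Per1* and *Cry2* on the right. Filled circles are mice at P30 and open triangles mice at P33, in grey for wild-type and red for ΔJ. On the left *Cry1* is lower where *Nr1d1* is higher, within the 9 P30 mice (r = -0.93) as well as between the ages, and on the right the points are spread.

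Whether the other clock genes followed *Per1* from mouse to mouse was asked with genotype and array set removed, which the choice of the set did not use. By limma, 0 of the 9 other members had a slope on the *Per1* level that passed the adjusted test, where the share of all probe sets was 0%. At an unadjusted p under 0.05, 3 of 9 passed, where 18.0% of all probe sets did. The slopes of these 3, in log2 per log2 unit of *Per1*, were 1.02 for *Clock* (SE 0.34, adjusted p = 0.19), 0.62 for *Cry2* (SE 0.21, adjusted p = 0.19) and 0.63 for *Per2* (SE 0.25, adjusted p = 0.23).

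The 3 genes differed in how many mice carried the relation. For *Cry2*, the partial correlation with *Per1* was r = 0.78 and rho = 0.78 over 12 mice, with an exact two-sided permutation p of 0.019 for r and 0.022 for rho within the 4 cells of genotype and array set. Adjusted over all probe sets these were 0.45 and 0.47. The r of *Cry2* was 0.63 without ΔJ replicate 5 and wild-type replicate 3, the mice with the most extreme *Per1* residuals, 0.68 within array set 1 and 0.84 within set 2. With genotype and array set left in, the levels of *Per1* and *Cry2* over the 9 P30 mice had r = 0.04 and rho = -0.02. For *Clock*, r was 0.71 and rho 0.43 (exact permutation p = 0.21 and 0.27) and r fell to 0.04 without ΔJ replicate 5, and for *Per2* r was 0.69 and rho 0.45 (exact permutation p = 0.11 and 0.14) and r fell to 0.17. These 2 relations rested on that mouse.

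The remaining members had partial correlations with *Per1* from -0.56 (*Per3*) to 0.48 (*Nr1d1*), with exact permutation p-values of r from 0.090 to 0.37. Between them stood *Cry1* at -0.54, *Dbp* at -0.53, *Nr1d2* at -0.45 and *Arntl* at 0.42. An absolute r over 0.7 was reached by 10.1% of all probe sets, and 0 probe sets had an adjusted permutation p under 0.05. The 1296 permutations allow no p below 0.000772. Among other clock genes 0 of 20 probe sets passed the adjusted test of the slope. At an unadjusted p under 0.05, where the share of all probe sets was 18.0%, *Nampt* (slope -0.95, SE 0.27, adjusted p = 0.18), *Tipin* (-0.89) and *Prkaa1* (0.92) passed. With sex as an added term, *Clock* (adjusted p = 0.039) and *Nampt* passed, as did 1823 probe sets in all.

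The genes most like *Per1* over the 12 mice, by partial r given genotype and array set, were *Gm16287* (0.93), *Spef2* (0.93), *Dnah3* (0.93), *Atg13* (0.92) and *Akt2* (0.91). Those most opposite were *Grp* (-0.96), *Grcc10* (-0.96), *Col3a1* (-0.95), *Itpkc* (-0.95) and *Ccdc80* (-0.95). *Spef2* and *Dnah3* encode parts of motile cilia and *Col3a1* a collagen. Without ΔJ replicate 5 these values kept their sign, from 0.81 to 0.90 and from -0.91 to -0.89. Of the 32 cell type markers, 0 had a called slope on *Per1*. An unadjusted p of 0.05, which 18.0% of all probe sets passed, was passed by 3 positive and 4 negative slopes. The latter included *Acta1* of muscle (-1.29, SE 0.37), *Mbp* of glia (-1.12, SE 0.28) and *Gap43* of immature neurons (-0.83, SE 0.32). The other measured glial markers had positive slopes, *Sox10* 0.78 (SE 0.28) and *Gfap* 0.54 (SE 0.33). Of the other immature neuron markers, *Gng8* had a slope of 0.57 (SE 0.56) and *Stmn4* one of -0.60 (SE 0.30). The part of the markers in these relations was not tested.

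**Figure D4:**
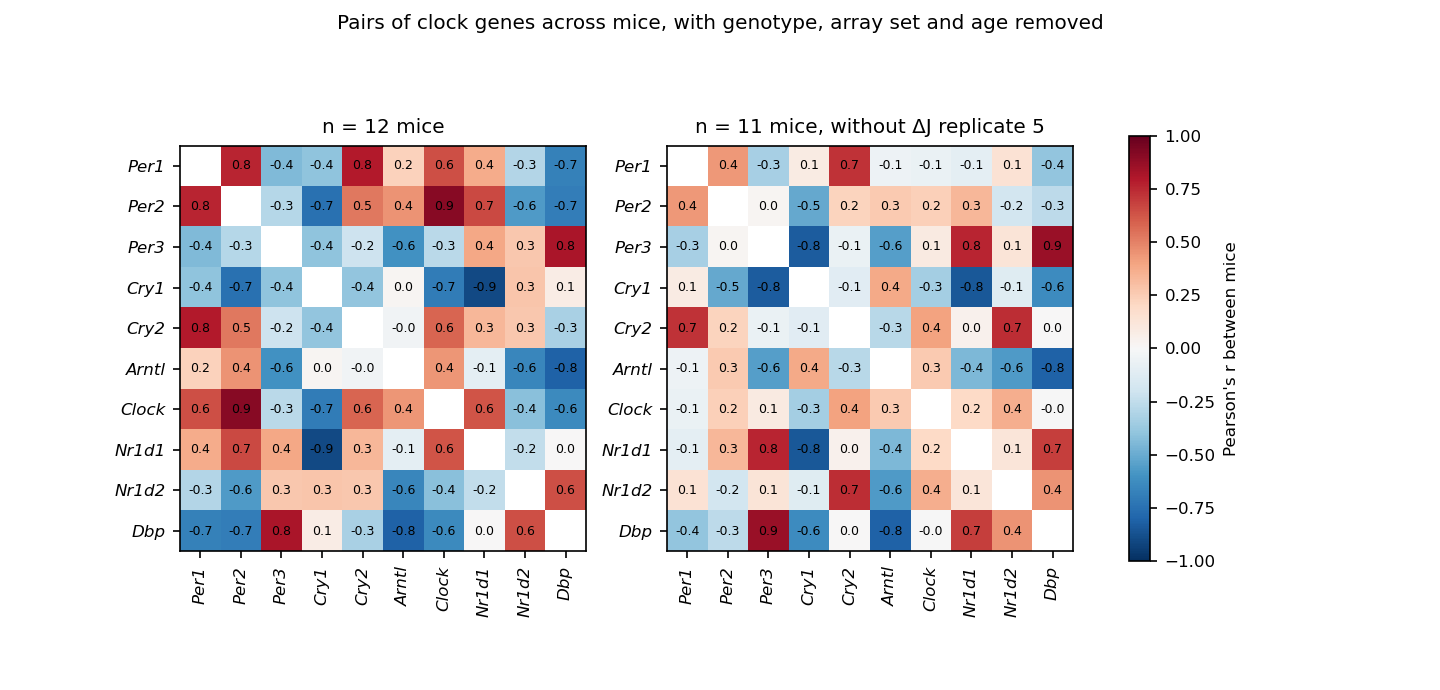
Pearson's r between each pair of the 10 clock genes across mice, after genotype, array set and age were removed, over 12 mice (left) and over 11 mice without ΔJ replicate 5 (right). Colour and printed value give r, from -1 (blue) to 1 (red). *Cry1* and *Nr1d1* are at -0.91 and -0.85, whereas *Per2* and *Clock* go from 0.91 to 0.24.

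Over all 45 pairs of members, with genotype, array set and age removed, 4 had an r over 0.7 and 3 an r under -0.7. *Per1* and *Cry2* (0.79), *Per3* and *Dbp* (0.82), *Arntl* and *Dbp* (-0.81) and *Cry1* and *Nr1d1* (-0.91) remained beyond 0.7 in size without ΔJ replicate 5, at 0.72, 0.86, -0.81 and -0.85. With only genotype and array set removed, *Per1* and *Cry2* (0.78) and *Cry1* and *Nr1d1* (-0.94) were beyond 0.7 as well, but *Per3* and *Dbp* (0.37) and *Arntl* and *Dbp* (-0.47) were not. *Per2* and *Clock*, the activator of the core loop, had 0.91 with that mouse and 0.24 without it. These values are descriptions over few mice, with both genes of a pair read on the same arrays. The pairs had values of both signs. In a loop of activators and repressors, this does not tell whether the members moved together.

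Between the array sets, 5 of 10 members passed the adjusted test, and in different directions. *Dbp* was higher in set 2 by 0.61 (SE 0.10, adjusted p = 0.00048 by limma), *Nr1d2* by 0.36 (SE 0.06, adjusted p = 0.0010) and *Cry2* by 0.20 (SE 0.06, adjusted p = 0.025). *Clock* was lower, with a difference of -0.35 (SE 0.11, adjusted p = 0.019), or -0.49 with age as an added term. *Cry1* was likewise lower, with one of -0.29 (SE 0.09, adjusted p = 0.024), or -0.12 with that term. The share of all probe sets called higher was 10.4% and lower 31.8%, so that 3 of 10 higher stood beside 10.4% and 2 of 10 lower beside 31.8%. *Dbp* ranged from 0.32 to 0.81 in the 6 mice of set 1 and from 0.93 to 1.50 in the 6 of set 2, and *Nr1d2* from 0.47 to 0.68 and from 0.82 to 1.20. Neither gene overlapped between the sets. The share of all probe sets without such overlap was not counted, so nothing is read from this lack of overlap.

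The array sets also differed in scale over the whole array, which touches the lower calls. All probe sets had a median difference of -0.10 after the 75th percentile was subtracted and 0.05 as deposited, and the called probe sets went from 3702 higher and 11296 lower to 8680 higher and 5980 lower. As deposited, 5 members were called higher (*Per2*, *Cry2*, *Nr1d1*, *Nr1d2* and *Dbp*) and 0 lower, with *Clock* at -0.21 (adjusted p = 0.13) and *Cry1* at -0.15 (adjusted p = 0.22), and centring each array on its median gave the same 5. *Dbp* (0.56 to 0.75) and *Nr1d2* (0.32 to 0.50) passed under every alternative tried. *Nr1d1* differed by 0.94 (SE 0.36, adjusted p = 0.054), and by 0.09 with age as a term. The sources used here do not say what the array sets stand for, and tissue collection, labelling and scanning cannot be told apart.

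Of the other clock genes, *Bhlhe41* (0.40) and *Tef* (0.19) were called higher in set 2 and *Fbxl21* (-0.41), *Prkaa1* (-0.32), *Csnk1e* (-0.21) and *Rora* (-0.12) lower, 6 of 20 probe sets. Of the cell type markers, 4 of 32 were called higher and 3 lower. Beside both lists, the shares of all probe sets were 10.4% higher and 31.8% lower. Among the markers called were *Cd68* of immune cells (0.49, SE 0.07), *Foxj1* of ciliated cells (0.37, SE 0.05) and *Neurog1* of progenitors (-0.19, SE 0.06). The other immune markers were not called (*Ptprc* -0.11, *C1qa* 0.11 and *Aif1* 0.01). Nor were the other basal and progenitor markers (*Krt5* 0.10, *Krt14* -0.11 and *Trp63* -0.13). Of the glial markers, *Sox10* was called higher (0.49, SE 0.08) and *Gfap* lower (-0.30, SE 0.09). The part of the markers in the clock gene values was not tested.

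Between the sexes, with genotype and array set in the model, 0 of 10 members passed the adjusted test by limma, where 0.0141% of all probe sets did. At an unadjusted p under 0.05 the count was 2, where the share of all probe sets was 8.13%. *Nr1d1* had a male minus female difference of 0.79 (SE 0.31, adjusted p = 0.61) and *Cry1* one of -0.20 (SE 0.08, adjusted p = 0.61). With age as an added term, chosen after the values were seen, these were 0.17 (adjusted p = 0.999) and -0.09 (adjusted p = 0.999), and among the P30 mice alone 0.33 and -0.15. Of the 3 mice at P33, 2 were male. Of the other clock genes 0 of 20 probe sets were called for sex and 6 passed the unadjusted p, from 1 of the 2 probe sets of *Ciart* (-0.33, SE 0.12) to *Rorb* (0.17, SE 0.06). The other probe set of *Ciart* had the opposite sign (0.10, SE 0.10).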

How the data were processed

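MOE RNA of 12 mice had been hybridised to Affymetrix Mouse Gene 1.0 ST arrays. The values deposited by the authors are log2 signals, 35556 per array. They had been made with Affymetrix Expression Console, per the submitters' processing notes, and the settings and version are not stated in the sources used here. Genes were named from the platform annotation, in which 21789 probe sets have 1 symbol, 1621 several and 12146 none.

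The 75th percentile of each array was subtracted, as the methods of the study state, and lmFit and eBayes of limma (version 3.58.1, under R version 4.3.3) were run over all probe sets, with Benjamini-Hochberg adjustment over all of them. Genotype was fitted alone. Array set (replicates 1 to 3 against 4 to 6) was fitted with genotype, and sex, age, the interaction and the *Per1* level were each added to or crossed with these. A probe set was called at an adjusted p under 0.05, for genotype also with a fold change beyond 1.3. Partial correlations used residuals of the same model and exact permutations within genotype and array set. The 95% confidence intervals are those of limma. The number of arrays limits the precision. The steps were tested on simulated data.

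Members and gene lists (other clock genes, glucocorticoid response, immediate early genes and 9 lists of cell type markers) were chosen with earlier results of these data known. Genes named are the members, the 5 genes most like and the 5 most opposite to *Per1*, other clock genes that passed a test, the first 2 genes of each list where measured, and *Olfr552* and *Olfr544*. Other genes, among them *Thra*, *Sphk2*, *Nfil3* and further markers, were named after their values were seen. Some listed genes are not reported here.

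Alternatives were 3 other scalings, each mouse left out, P30 mice or single array sets, a filter on low values, sex or array set terms, and the replicate number as a block. Terms for age, and for sex in the age comparison, were added after the data were seen. Same-numbered ΔJ and wild-type mice deviated together (r of 0.18 to 0.44 over all probe sets), but within the array sets r was -0.14 to 0.08, so the numbers follow the array sets.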

Additional observations from a re-analysis of the deposited data

Results flagged for a closer look

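*Nr1d1* in ΔJ replicate 6 stood at 2.84, 1.76 above the nearest of the other 5 ΔJ mice (1.08), which is 0.81 of the range of the group and beyond Dixon's 95% critical value for 6 mice. *Cry1* in the same mouse stood at -0.31, 0.33 below the nearest ΔJ mouse (0.03), 0.66 of the range. ΔJ replicate 6 was the 1 ΔJ mouse taken at P33, and its 2 values lay beside those of the 2 wild-type mice of that age. Chance alone would mark about 1 in 20 groups, and 20 groups (10 genes in 2 genotypes) were examined.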

How the results depend on the processing

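Of 220 recomputed genotype differences of members, given without a test, 17 turned sign (9 of *Cry2*, 4 of *Per3*, 2 of *Per2* and 2 of *Dbp*), all between values of at most 0.11 in size. Of 636 other recomputed values and counts of calls, 594 were unchanged in direction and in their side of the threshold (or, for counts, close to the count reported), 29 lost and 9 gained a call or calls, and 4 turned sign. These 4 were slopes on *Per1*: *Nr1d2* without ΔJ replicate 5 (0.044, within -0.51 to 0.044 over single mice left out), and within array set 1 *Cry1* (0.29), *Clock* (-0.11) and *Nr1d1* (-0.86); the cause was not tested. With sex as an added term 1 member (*Clock*) and 1 other clock gene (*Nampt*) had a called slope, against 0 and 0. The 5 members called between array sets became 3 to 7 with single mice left out (3 without wild-type replicate 2 or 6, 7 without ΔJ replicate 5). The 1 member called for age became 0 to 1 with single mice left out, 0 within array set 2 alone, which leaves fewer mice, and 0 with sex as a term. With the replicate block, 0 members were called between genotypes, *Per1* stood at -0.35 and 0 members had a called slope, so the block changed no call. The genotype difference of *Per1*, on which it was chosen, stayed between -0.37 and -0.29 with single mice left out. Another background correction was not run, since the values are already summarized. Levels carry no measure of signal over background, and 12 mice with 3 at P33 limit what could be detected.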
